A study of Homo sapiens with 12 samples.

Results

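The regions described here were called as N6-methyladenosine (m6A) peaks after ALKBH5 knockdown and not after scrambled siRNA in 2 or 3 replicate numbers, and were lost in none. They were chosen by those calls: peaks of all lists on the same strand were joined where their exon blocks overlapped by at least 1 bp. A region counted as gained in a replicate number if the knockdown library of that number had a peak in it and the scrambled library did not, and as lost in the reverse case. There were 741 such regions among 21675 regions in all, or 3.42%, and 670 genes carried them. The mirror set, lost in 2 or 3 numbers and gained in none, held 235 regions (1.08%). Because the calls selected the members, the number and pattern of the calls are descriptions and carry no test.

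The cells were 143B, an established human osteosarcoma line, transfected for 48 h with siRNA against ALKBH5 or with scrambled siRNA. Fragmented RNA was immunoprecipitated with an antibody against m6A and sequenced (MeRIP-seq), giving 1 peak list for each of 3 knockdown and 3 scrambled libraries, and the 6 input samples were not analysed here. Each replicate number had a protocol of its own. Polyadenylated RNA was used in replicates 1 and 3, each with another antibody, and total RNA in replicate 2, with a kit and an antibody different from both. These antibodies are taken from the protocol text, as the antibody field gives that of replicate 1 everywhere, and the labels do not say whether the numbers were separate cultures. Each test below therefore measures only the spread between these samples, which may be technical.

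m6A is laid down on nascent RNA by a methyltransferase complex with METTL3 as its catalytic subunit, is bound by reader proteins such as those with a YTH domain, and can be removed by the demethylases ALKBH5 and FTO. On messenger RNA it gathers near stop codons, in long exons and in 3′ untranslated regions, and it is known for effects on splicing, export, translation and decay. A demethylase knockdown is a usual way to look for sites that the enzyme may act on. A missing peak does not show that the mark was absent, and peak calls cannot tell a change of methylation from a change of RNA level.

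The lists differed in length, and the shortest came from the total RNA protocol. Knockdown replicates 1, 2 and 3 held peaks in 13634, 4248 and 15859 regions, and the scrambled replicates held peaks in 10761, 4120 and 16274. Exon length covered by peaks was 5746, 1084 and 7855 kb in the knockdown libraries and 3661, 961.2 and 7854 kb in the scrambled libraries. The depth behind each list is unknown, since the lists hold no counts. ALKBH5 itself had no peak in any knockdown library and a peak at a different site in each of scrambled replicates 1 and 3. Of the markers of the osteoblast lineage, RUNX2 and SPP1 had peaks in 5 of the 6 libraries, while SP7, ALPL, COL1A2, SPARC and IBSP had none. None of 4 epithelial and 3 blood cell markers had a peak.

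Replicate 1 contributed to nearly all members. Over all regions, 4605 were gained in replicate 1 (21.2%), 1302 in replicate 2 (6.01%) and 2446 in replicate 3 (11.3%), and 1732, 1174 and 2861 were lost in those replicates. Of the 741 members, 718 were gained in replicate 1, 261 in replicate 2 and 531 in replicate 3. The most frequent pattern, with 475 regions, was a call in knockdown replicates 1 and 3 and in no other library. A further 194 regions were gained in replicates 1 and 2 and called in both libraries of replicate 3. There were 28 regions called in all 3 knockdown libraries and no scrambled library. In all, 529 members had no call in any scrambled library. Just outside the rule lay 6320 regions gained in 1 number and lost in none, and 5 regions gained in 2 numbers but lost in the third, in NAV1, DNAJC9, ZSWIM8, SSH1 and GAK.

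The size and make-up of the set depended on how the lists were trimmed. With both lists of each number held to equally many best-scored peaks, 578 regions were gained, and 559 of the 741 were among them. Knockdown replicate 1 covered more exon length than its scrambled partner, and when the lists of each number were trimmed by score to equal covered length instead, 70 regions were gained and 754 were lost in at least 2 numbers. With the best-scored 50% of each list, 556 regions were gained by the same rule, and 68 of the 741 were among them. Without replicate 1, only 52 regions were gained in both remaining numbers.

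**Figure D1:**
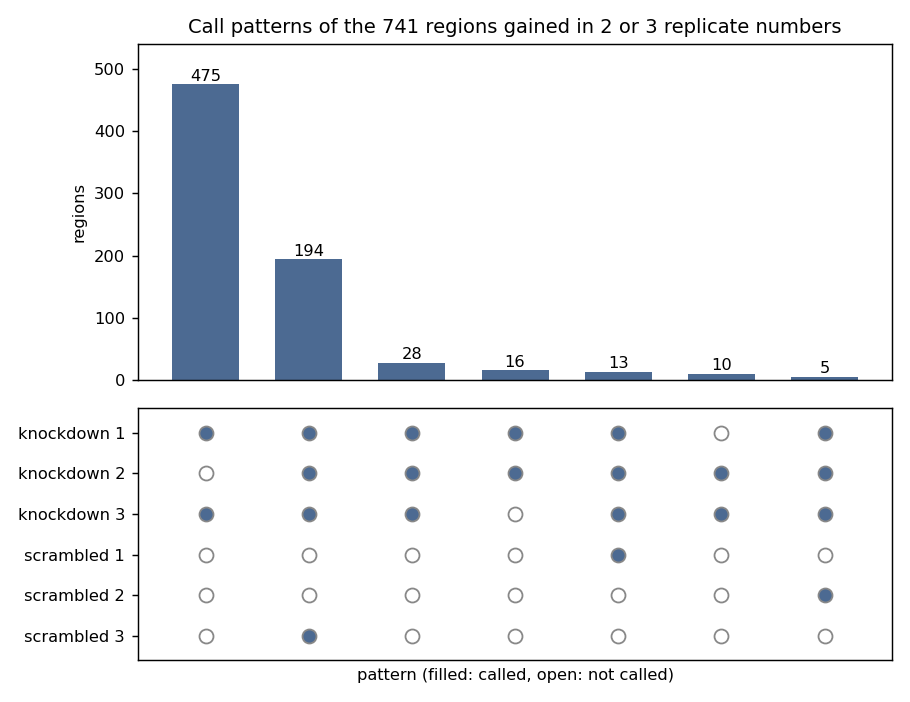
Number of member regions with each pattern of calls (bars, upper panel), with filled circles for a call and open circles for no call in each of the 6 libraries (lower panel). The pattern of knockdown replicates 1 and 3 alone holds 475 of the 741 regions, and the pattern of all 3 knockdown libraries alone holds 28.

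Members were short and weakly scored beside the other regions of the same libraries. The score deposited with each peak was turned into a percentile within its list, with 100 for the best score. The members called in knockdown replicates 1, 2 and 3 had median called lengths of 180, 120 and 210 nt, where all regions called in those libraries had medians of 300, 181 and 360 nt. Their median percentiles were 30.5, 27.1 and 31.9, against 54.4, 55.6 and 52.0 for all regions of those libraries. Length and percentile are not separate measures, since they correlated across peaks within every list (Spearman correlation 0.79 to 0.87, peaks of 1 library each). Taking for each member the lowest percentile over the knockdown libraries in which it was called, the values ran between 0.0085 and 76.7, with a median of 16.1. The same value over the scrambled calls of the lost regions had a median of 15.2. Low percentiles were common in both sets.

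The 28 regions called in all 3 knockdown libraries and no scrambled library included genes of signalling, chromatin and membrane traffic. The 12 with the highest lowest percentile are given here with their positions (hg19, counted from 1) and the exon length called in knockdown replicates 1, 2 and 3; all 3 scrambled libraries were at 0 nt for each. Whether a position is coding or untranslated was not determined, because no annotation of that build was used here.

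GRK2, KSR2, ABL1, SHB, PLCD4 and APC2 act in cell signalling. The region in GRK2, a kinase that phosphorylates activated G protein-coupled receptors, lay at chromosome 11, 67051751 to 67052615 (plus strand) and measured 241, 91 and 181 nt in knockdown replicates 1, 2 and 3. That in KSR2, a scaffold of the Ras and MAP kinase cascade, lay at chromosome 12, 117904645 to 117904945 (minus strand) with 151, 151 and 301 nt. That in ABL1, a non-receptor tyrosine kinase, lay at chromosome 9, 133759497 to 133759886 (plus strand) with 151, 211 and 330 nt. In both KSR2 and ABL1 the longest call was that of replicate 3, while in GRK2 it was that of replicate 1. The region in SHB, an adaptor protein with an SH2 domain, lay at chromosome 9, 37916734 to 37917003 (minus strand) with 240, 61 and 270 nt. The region in PLCD4, a phospholipase C, lay at chromosome 2, 219501700 to 219501909 (plus strand) with 150, 90 and 180 nt. That in APC2, a relative of the tumour suppressor APC that binds beta-catenin, lay at chromosome 19, 1470994 to 1471474 (plus strand) with 302, 181 and 331 nt. Replicate 2, the total RNA protocol, had the shortest call in SHB, PLCD4 and APC2.

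The other 6 covered transcription, chromatin, the cytoskeleton and secretion. The region in NPAS3, a transcription factor of the basic helix-loop-helix PAS family, lay at chromosome 14, 34268961 to 34269618 (plus strand) and measured 479, 150 and 658 nt. That in BRPF1, a scaffold subunit of histone acetyltransferase complexes, lay at chromosome 3, 9789071 to 9789400 (plus strand) with 300, 90 and 330 nt. The region in EXOC7, a subunit of the exocyst that tethers secretory vesicles, lay at chromosome 17, 74079123 to 74079423 (minus strand) with 121, 211 and 211 nt. NPAS3 had the longest call of the 12 in replicate 1 and in replicate 3. The region in SEPTIN10, a filament-forming GTPase, lay at chromosome 2, 110303566 to 110303745 (minus strand) with 180, 120 and 150 nt. That in MYO19, a myosin that moves mitochondria, lay within chromosome 17, 34856683 to 34856971 (minus strand), in 2 exon blocks, with 150, 90 and 180 nt. The region in ANKRD34A lay at chromosome 1, 145473439 to 145473767 (plus strand) with 329, 120 and 150 nt.

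These 12 were not uniformly well scored. GRK2, first in the order, had percentiles of 36.8, 49.7 and 35.5 in knockdown replicates 1, 2 and 3. BRPF1 had 66.2, 46.7 and 29.5, and EXOC7 had 33.6, 62.4 and 32.2. No library was the lowest for all of them. It was replicate 1 for KSR2 and SHB, and replicate 2 for NPAS3, APC2, ANKRD34A, MYO19 and PLCD4. For GRK2, ABL1, EXOC7, BRPF1 and SEPTIN10 it was replicate 3.

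The remaining 16 had a lowest percentile of 16.7 or less. The first was in TNFRSF6B, a soluble decoy receptor for Fas ligand whose region overlaps RTEL1, a helicase that acts at telomeres, so that the reads of these genes cannot be told apart. Others were COMTD1, IRGQ, CBX6 (a chromobox protein of Polycomb repressive complex 1), TAPBP (tapasin, which helps load peptides on MHC class I), CHD3 (a remodelling ATPase of the NuRD complex) and CTIF (an initiation factor for the nuclear cap-binding complex). TBC1D12, PDCD6IP (ALIX, which works with the ESCRT machinery), KBTBD6 (an adaptor of a cullin ubiquitin ligase), TMEM229B, SPG7 (a mitochondrial protease), GET4 (which hands tail-anchored proteins to the endoplasmic reticulum), CDK10 and WNK4 were also among them. The weakest calls were those of WNK4, a kinase that controls salt transport, with a percentile of 0.008 in knockdown replicate 2, of CDK10 with 0.456 in replicate 1, and of SPG7 and GET4 with 0.666 in replicate 1. The same WNK4 region stood at 64.3 and 41.7 in knockdown replicates 1 and 3.

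**Figure D2:**
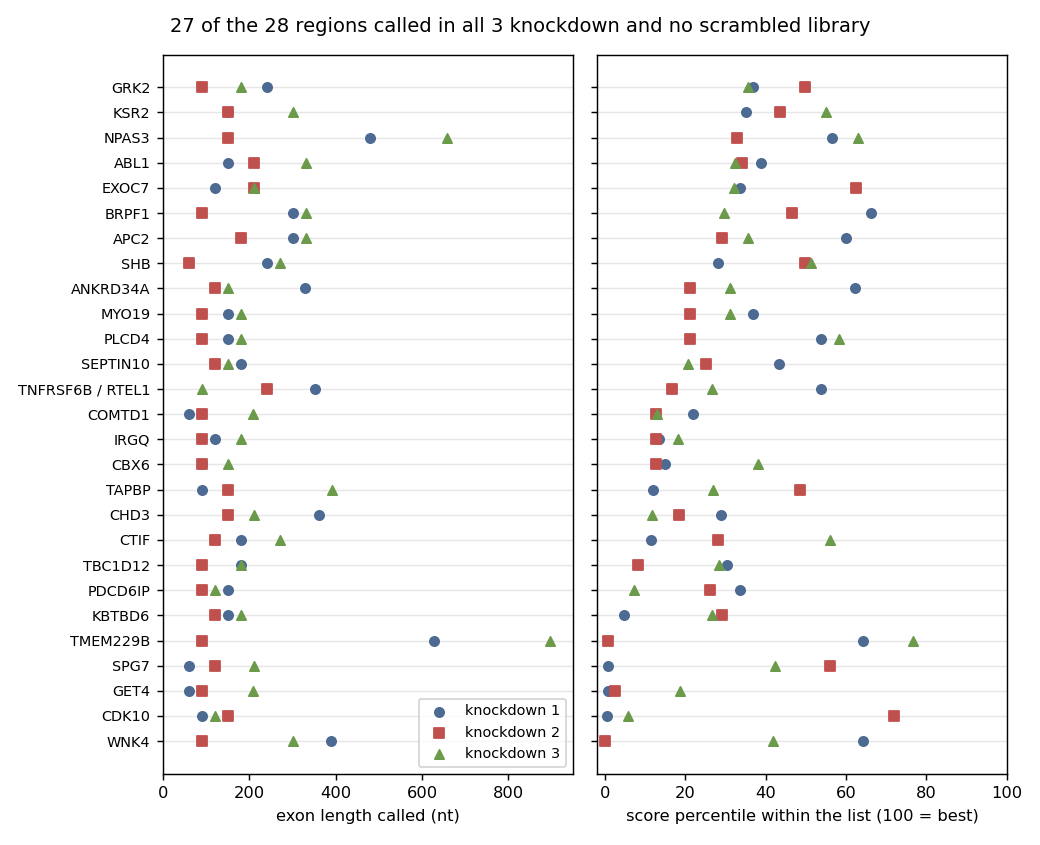
Exon length called in nt (left) and score percentile within the list (right, 100 is the best score) in knockdown replicates 1, 2 and 3 for 27 of the 28 regions called in no scrambled library, ordered from the highest to the lowest minimum percentile. The GRK2 region has its lowest percentile at 35.5 and the WNK4 region at 0.008.

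Of the 210 regions gained in replicates 1 and 2 only, 194 had a call in both libraries of replicate 3, the best scored among them. The region in CDK5R2, a neuronal activator of the kinase CDK5, lay at chromosome 2, 219825420 to 219826104 (plus strand). It measured 596, 269 and 626 nt in knockdown replicates 1, 2 and 3. The scrambled libraries had 0, 0 and 269 nt. The region in COL6A2, which encodes a chain of collagen VI of the extracellular matrix, lay at chromosome 21, 47552044 to 47552583 (plus strand). It measured 270, 390 and 540 nt in the knockdown libraries and 0, 0 and 360 nt in the scrambled libraries. In both, the replicate 3 call was longer after knockdown. The region in MKI67, the gene of the proliferation marker Ki-67, lay at chromosome 10, 129904246 to 129905774 (minus strand), with 750, 272 and 1350 nt in the knockdown and 0, 0 and 1141 nt in the scrambled libraries. TMEM129, an ubiquitin ligase of the endoplasmic reticulum, had 419, 150 and 419 nt against 0, 0 and 359 nt at chromosome 4, 1719287 to 1720213 (minus strand). All 6 regions chosen for this pair by their lowest percentile, with LIPG (endothelial lipase) and TAP2 (a subunit of the peptide transporter for MHC class I) as the remaining ones, had a longer call and a higher percentile in knockdown replicate 3 than in scrambled replicate 3. The choice by lowest percentile included knockdown replicate 3, so it favoured a high value there.

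Regions gained in replicates 1 and 3 only were absent from both replicate 2 lists in 475 of 480 cases. The best scored lay in NIM1K, a kinase related to AMPK, at chromosome 5, 43245255 to 43246148 (plus strand), with 745, 0 and 894 nt in knockdown replicates 1, 2 and 3, against 0 nt in every scrambled library. Its percentiles in knockdown replicates 1 and 3 were 90.6 and 76.7. KIAA0513 had 270, 0 and 450 nt at chromosome 16, 85112764 to 85113243 (plus strand), and TMCC2 had 539, 0 and 480 nt at chromosome 1, 205238306 to 205238844 (plus strand), with 0 nt in the scrambled libraries. The others named by the same order were the long noncoding RNA LINC00662, the lipid transfer protein gene BLTP1, and LMBRD2. With few regions listed in replicate 2 in either condition, a region absent there was neither gained nor lost in that number.

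The 23 regions gained in replicates 2 and 3 were few, and 13 of them were called in both libraries of replicate 1. Of the 6 best scored, ARHGEF40, ARHGEF18 and BCR encode guanine nucleotide exchange factors. ARHGEF40 had 330, 150 and 241 nt in knockdown replicates 1, 2 and 3, against 210, 0 and 0 nt with scrambled siRNA, at chromosome 14, 21549965 to 21550538 (plus strand). ARHGEF18, of the same family, had 271, 89 and 280 nt against 208, 0 and 0 nt at chromosome 19, 7536021 to 7536360 (plus strand). BCR, the partner of ABL1 in the fusion of chronic myeloid leukaemia, had 271, 121 and 211 nt against 91, 0 and 0 nt at chromosome 22, 23523151 to 23523421 (plus strand). SHROOM2, an actin-binding protein, had 0, 151 and 331 nt against 0 nt in each scrambled library. EPB41L2, of the protein 4.1 family, and SLC12A9 were the others named by the order.

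The 194 members gained in replicates 1 and 2 and called in both libraries of replicate 3 gave a measure that did not enter their choice, since replicate 3 called them in both conditions. In replicate 3 the within-list percentile was higher in the knockdown than in the scrambled library for 154 of the 194 (79.4%), against 6589 of all 13413 regions called in both libraries (49.1%). Their median percentile was 58.8 in the knockdown and 47.4 in the scrambled library, and the median of the differences, knockdown minus scrambled, was 11.4 points. With the best-scored 50% of each list, an alternative chosen after seeing the data, 66.7% of 132 such regions were higher and the median difference was 5.48 points. Over all 13413 regions the median difference was -0.27 points. The called length was greater in the knockdown for 135 of the 194, equal for 15 and smaller for 44, with medians of 390 nt in the knockdown and 314.5 nt in the scrambled library. That share was 69.6%, against 47.2% of all regions called in both libraries. This rests on a single pair of libraries, so no test across samples is possible, and regions are not replicates.

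In replicate 3 the same measure ran in order with the calls of replicates 1 and 2. Of 3193 regions gained in just 1 of replicates 1 and 2 and lost in neither, 60.3% had a higher percentile in knockdown replicate 3, with a median difference of 4.60 points. Of 1290 regions lost in just 1 of them and gained in neither, 32.0% were higher, with a median difference of -7.48 points. Of the 14 regions lost in both, 4 were higher, with a median difference of -12.8 points. The members covered a wide span around their median: the differences ran between -32.6 and 61.2 points, 63 regions exceeded 20 points and 7 lay below -20 points. TNS4, of the tensin family of focal adhesion proteins, stood at 93.1 in knockdown replicate 3 and 33.1 in the scrambled library, and KDM4B, a histone lysine demethylase gene, at 67.0 and 13.2. These were chosen after their values were seen, as were those at the other end, PRRC2C with 16.1 in the knockdown and 48.7 in the scrambled library, and SLC12A4, a potassium and chloride cotransporter gene, with 34.2 and 63.2.

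**Figure D3:**
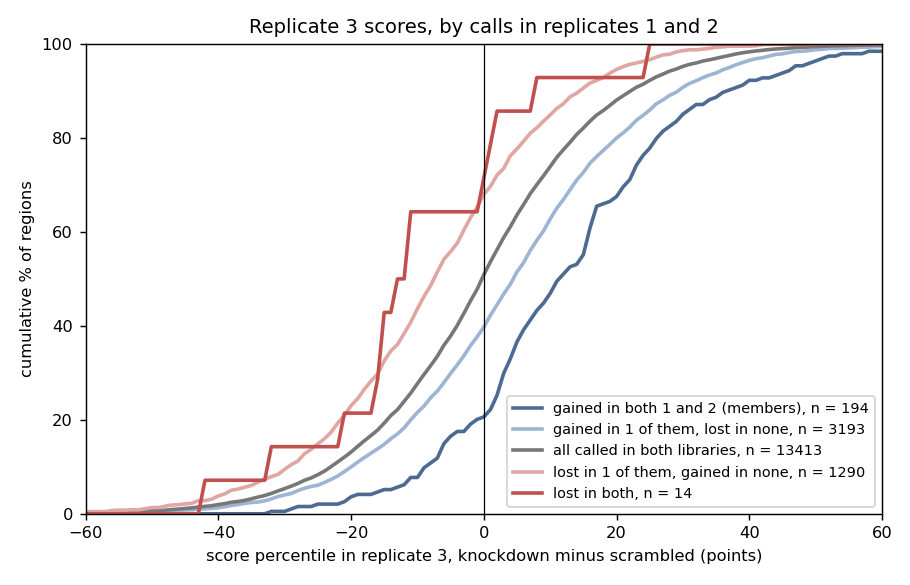
Cumulative percentage of regions (vertical axis) against the within-list score percentile in replicate 3, knockdown minus scrambled, in points (horizontal axis), for regions called in both libraries of replicate 3 and grouped by their calls in replicates 1 and 2. The curve of the 194 members lies farthest to the right, with a median of 11.4 points, and that of the 13413 regions crosses 50% near 0.

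The other replicates held too few members of this kind. Of the 13 members gained in replicates 2 and 3 and called in both libraries of replicate 1, 11 had a longer call in knockdown replicate 1, where 78.0% of all 9029 regions called in both libraries of that replicate were longer too. The percentile was higher in the knockdown for 6 of the 13, against 59.0% of all. The order seen in replicate 3 was weak in replicate 1: 63.7% of 1048 regions gained in just 1 of replicates 2 and 3 were higher, as were 57.1% of 1010 regions lost in just 1 and 5 of 9 lost in both. Of the 5 gained in replicates 1 and 3 and called in both libraries of replicate 2, 1 was longer in the knockdown, 3 were equal and 1 was shorter.

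By position along the gene, the members differed with the pair of numbers that gained them when genes with 2 regions were included. For regions with 1 gene number in a gene with at least 2 regions, the place among the regions of the gene was scaled between 0 at the most 5′ and 1 at the most 3′ region. Members averaged 0.46 on this scale (557 regions), the lost set 0.49 (173 regions) and all regions 0.50. Regions gained in replicates 1 and 2 averaged 0.58 and were the most 3′ region of their gene in 40.8% of 147 cases (95% Wilson interval 33.2 to 48.9%). Those gained in replicates 1 and 3 averaged 0.42 and were the most 3′ region in 28.1% of 370 cases (23.8 to 32.9%). The share was 34.3% over all regions. In genes with at least 3 regions the shares lay closer together, at 24.4% of 86 regions gained in replicates 1 and 2 (16.6 to 34.5%), 21.1% of 223 gained in replicates 1 and 3 (16.2 to 26.9%) and 25.5% of all regions. These intervals cover counting error only, and replicate 2 differed from the others in RNA type and antibody.

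The pairs also differed in length and in the kind of gene. Members gained in replicates 1 and 2 had a median exon length of 420 nt, those gained in replicates 1 and 3 of 211 nt, those gained in replicates 2 and 3 of 331 nt, and those gained in all 3 of 285.5 nt. Over all members the median was 271 nt (95% interval 268 to 299 nt), against 211 nt in the lost set and 329 nt over all regions. Long noncoding RNA genes held 34 of the 709 members with 1 named gene (4.80%), 20 of 219 regions of the lost set (9.13%) and 4.69% of all regions. The Wilson intervals for members and lost regions overlapped (3.45 to 6.63% for members, 5.99 to 13.7% for the lost set). Within the members, noncoding RNA genes held 6.40% of those gained in replicates 1 and 3 and 2.40% of those gained in replicates 1 and 2. At least 2 exon blocks were present in 157 members (21.2%), against 17.0% of the lost set and 24.3% of all regions. Chromosome 19 held 43 members (5.80%), 7.23% of the lost set and 6.24% of all regions. Over the autosomes and X the share of regions that were members ran between 2.13% on chromosome 15 and 4.37% on chromosome 17.

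Most members lay in genes that also had a peak in a scrambled library, but such peaks were less common than over all genes. Of the 670 genes with a member, 151 had no peak in any scrambled library, against 760 of all 10536 genes with a peak. The rule itself selects for missing scrambled calls. For 484 members (65.3%) another region of the same gene was called in at least 1 scrambled library, and for 146 of the 235 lost regions (62.1%) another region of the gene was called in a knockdown library. The nearest such region lay a median of 956.5 nt away on the genome for members and 552 nt away for lost regions. In 66 cases the gap to a member was 100 nt or less. Whether such a member is the edge of a neighbouring peak was not tested.

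Of the 670 genes with a member, out of 10536 genes with any peak (6.36%), 621 had 1 member region, 41 had 2 and 8 had 3. A lost region was present in 218 genes (2.07%). The 8 genes with 3 member regions were APC2, MYO19, ADGRG4, KIAA0513, KIF26B, LINC00842, PCDH10 and TMEM129. In APC2, knockdown replicates 1, 2 and 3 called 4, 3 and 8 of its regions, and the scrambled libraries called 1, 0 and 3. In MYO19 the knockdown libraries called 4, 2 and 4 regions and the scrambled libraries 0, 0 and 2. In ADGRG4, an adhesion G protein-coupled receptor gene, the knockdown libraries called 4, 0 and 7 of 8 regions and the scrambled libraries called none. In PCDH10, a protocadherin gene, they called 4, 0 and 7 against 1, 0 and 0, and in KIF26B, a kinesin family gene, 4, 0 and 6 against 1, 0 and 1. None of these 8 genes had a lost region of the mirror set. In 6 genes both a member and a lost region were present: CTIF, HDAC9, NFATC4, PPP1R7, SCARF2 and ZFHX3. The HDAC9 pair lay at chromosome 7, with the gained region at 19035732 to 19035942 called in knockdown replicates 1 and 3 and the lost region at 18705885 to 18706125 called in all 3 scrambled and no knockdown libraries.

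Gene families named by symbol were counted by how many of their regions were members, against 3.42% of all regions and 1.08% for the lost set. The families and lists were drawn up with earlier results of these data known, so the shares are descriptions. There were 47 families and 21 lists, and the intervals count regions of the same gene as separate. An interval that leaves out 3.42% is therefore not a test. In the 36 families with at least 50 regions the share of members ran between 0 and 7.84%, with a median of 3.07%.

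Solute carriers, which move ions, sugars, amino acids and other small molecules across membranes, held 22 members among 354 regions (6.21%, 95% Wilson interval 4.14 to 9.23%) and 5 lost regions. These lay in 21 of 192 genes, which by symbol include SLC7A6OS and SLC4A1AP, genes that do not encode carriers. SLC17A9, a vesicular nucleotide transporter, had the best scored region, with 330, 180 and 360 nt in knockdown replicates 1, 2 and 3, against 0, 0 and 299 nt in the scrambled replicates. SLC7A6, an amino acid transporter, had 2 member regions, and 1 of them overlapped the SLC7A6OS member on the opposite strand. The SLC5A2 member likewise overlapped a member in RUSF1 on the opposite strand. Whether the calling used strand is not stated, so the reads of those genes cannot be told apart, and the same holds for antisense RNA genes. SLC7A11, the cystine and glutamate exchanger, had a short region gained in replicates 1 and 3 with 61, 0 and 121 nt in the knockdown libraries and none in the scrambled libraries. SLC2A3, a glucose transporter, had a region gained in replicates 1 and 2 with 150, 151 and 420 nt in the knockdown, against 0, 0 and 538 nt in the scrambled libraries. In replicate 3, where 10 of the 22 were called in both conditions, the percentile was higher in the scrambled library for SLC12A4, SLC25A24 and SLC17A9. SLC12A9, gained in replicates 2 and 3, measured 181, 151 and 180 nt in the knockdown and 151, 0 and 0 nt in the scrambled libraries. With the best-scored 50% of each list, 3.68% of solute carrier regions were members, below the 4.97% of all regions in that setting, so the higher share did not hold there. Without replicate 1, 0.28% of them and 0.24% of all regions were members.

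Zinc finger genes of the ZNF type, mostly DNA-binding repressors with C2H2 domains, held 12 members among 1081 regions (1.11%, 0.64 to 1.93%) and 17 lost regions (1.57%). They were the largest family counted. With the best-scored 50% of each list, 2.85% of their regions were members, against 4.97% of all regions. Without replicate 1 none was, where 0.24% of all regions were. ZKSCAN1 had the best scored member, with 240, 180 and 450 nt in knockdown replicates 1, 2 and 3, against 0, 0 and 480 nt in the scrambled replicates. ZNF516 followed with 332, 241 and 540 nt in the knockdown, against 0, 0 and 421 nt in the scrambled libraries. Homeobox, SOX and FOX transcription factors together held 1 member among 152 regions, in FOXF1, and 2 lost regions. F-box proteins, ubiquitin-specific proteases and centrosomal CEP proteins held none among 82, 82 and 87 regions.

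Kinesins and dyneins, the motors of microtubules, held 7 members among 96 regions (7.29%, 95% Wilson interval 3.58 to 14.3%) and no lost region. Their genes were DYNC1H1, the heavy chain of cytoplasmic dynein, DYNC1LI2, a light intermediate chain of it, and the kinesins KIF21B, KIF16B and KIF26B, the last with 3 regions. The dynein heavy chain region measured 300, 90 and 450 nt in knockdown replicates 1, 2 and 3, against 0, 0 and 420 nt in the scrambled replicates. Its percentile in replicate 3 was lower in the knockdown, at 42.9, against 63.0 in the scrambled library. Rab GTPases and their regulators held 8 among 177 (4.52%, 2.31 to 8.66%) with 1 lost, in TBC1D12, TBC1D16, TBC1D17, TBC1D2B, RAB10, RAB28 and RAB11FIP1. G proteins and RGS proteins, which end their signals, held 4 among 51 (7.84%, 3.09 to 18.5%), in GNAI2, RGS9, RGS12 and RGS19. The intervals of the Rab and G protein families include the 3.42% of all regions.

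Chromatin regulators were spread over several families. Chromodomain CHD and CBX proteins held 3 members among 41 regions (7.32%), in CHD3, CBX6 and CBX5, and lysine demethylases held 3 among 44 (6.82%), in KDM4B, KDM4C and KDM5C. Genes of histone acetylation held 4 among 85 (4.71%) with 1 lost, among them BRPF1, BRD2 and HDAC9. Histone lysine methyltransferases held 3 among 127, with 2 regions in SETD1B and 1 in KMT2D. The Wilson intervals were 2.52 to 19.4% for CHD and CBX proteins and 2.35 to 18.2% for lysine demethylases. They were 1.8 to 11.5% for histone acetylation and 0.81 to 6.72% for the methyltransferases. Each of these intervals includes the 3.42% of all regions. RNF40, a ubiquitin ligase for histone H2B that publications on this study treat as a target, had 1 member, at chromosome 16, 30785292 to 30786101 (plus strand). It measured 391, 150 and 810 nt in knockdown replicates 1, 2 and 3, against 0, 0 and 630 nt with scrambled siRNA. Its percentile in replicate 3 was 72.6 in the knockdown and 50.3 in the scrambled library. The region of USP22, the other such target, was called in all 6 libraries and was no member. The other regions of RNF40 were gained in replicate 2 only or in no number, and none was lost in any. The nearest of them, at 30786190 to 30787508, starts close to the end of the member. It measured 751, 180 and 1259 nt in knockdown replicates 1, 2 and 3, against 540, 0 and 1201 nt with scrambled siRNA. The gain of the member in replicate 1 thus lies beside a scrambled call of that replicate. Whether the member is the edge of this neighbouring region was not tested. The list of H2B ubiquitination and SAGA genes held 1 member among 39 regions (2.56%), against 3.42% of all regions.

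**Figure D4:**
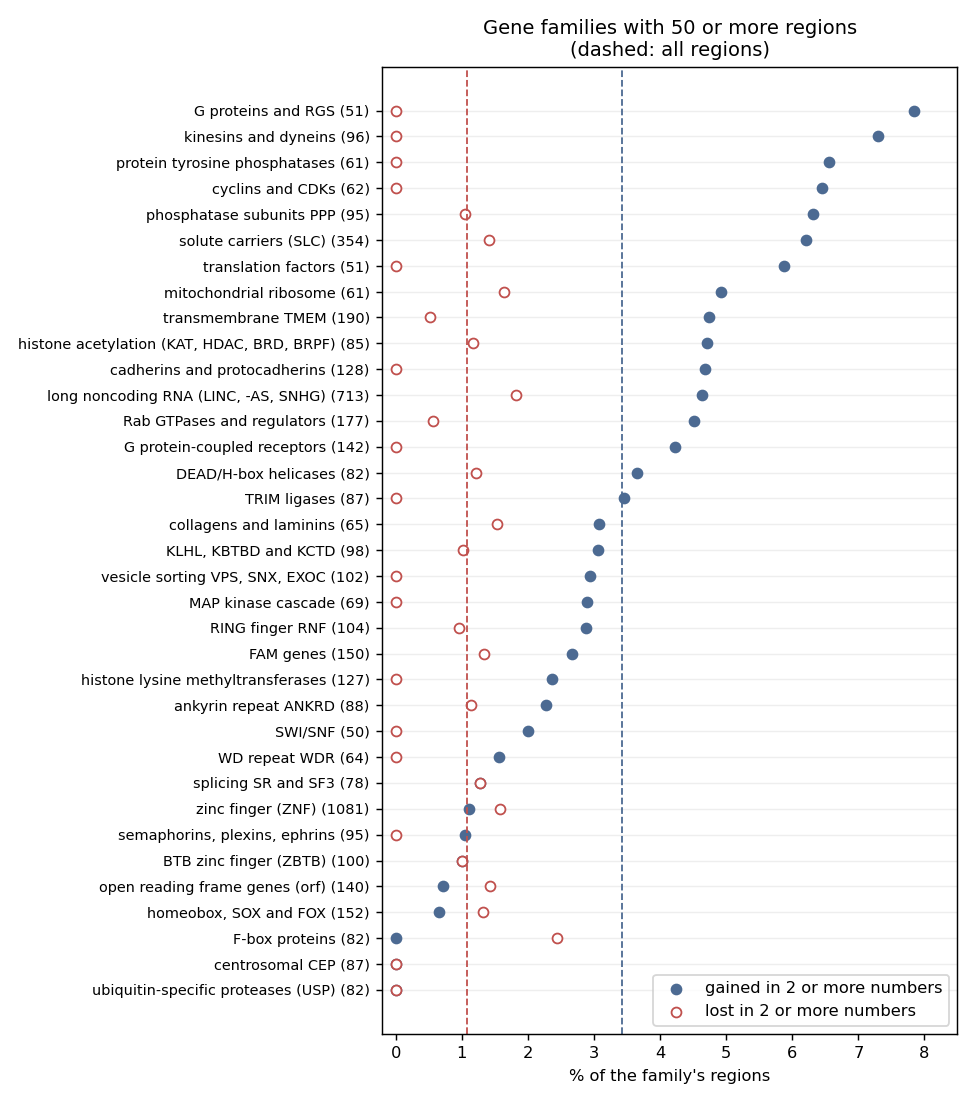
Percentage of the regions of each gene family that were gained in at least 2 numbers (filled circles) or lost in at least 2 numbers (open circles), for 35 of the 36 families with at least 50 regions, the number of regions in brackets. Dashed lines mark the shares over all regions, 3.42% gained and 1.08% lost; solute carriers stand at 6.21% and zinc finger genes at 1.11% gained.

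Among pathway lists, that of TGF-beta and BMP signalling had 6 members among 65 regions (9.23%, Wilson interval 4.30 to 18.7%) and no lost region. Over all regions 3.42% were members and 1.08% were lost. The interval leaves out 3.42%, but this is no test, as the lists were drawn up with earlier results known. The ligand gene TGFB2 had 91, 0 and 361 nt in knockdown replicates 1, 2 and 3. Among receptors, TGFBR2 had 212, 121 and 451 nt, and ACVR1B had 2 short regions gained in replicates 1 and 3. SMAD9, a transcriptional effector of BMP signalling, had 239, 121 and 329 nt. SMURF1, a ubiquitin ligase that acts on the pathway, had 240, 60 and 599 nt. TGFBR2 and SMURF1 were also called in scrambled replicate 3, at 481 and 660 nt, longer than in knockdown replicate 3. SMAD9 was called there at 120 nt, and TGFB2 and ACVR1B were not called in any scrambled library. The percentile in replicate 3 was higher in the knockdown for all 3 that both libraries called, by small margins for TGFBR2 (39.8 in the knockdown, 38.5 in the scrambled library) and SMURF1 (72.9 and 70.7).

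Wnt signalling had 7 members among 102 regions (6.86%, Wilson interval 3.36 to 13.5%). They lay in the receptor gene FZD8 with 2 regions, in DVL1, which relays the receptor signal, and in APC2 with 3 regions. The remaining member lay in CSNK1A1, a casein kinase of the beta-catenin destruction complex. The Wnt list had 2 lost regions, in AMER1 and AXIN2. DVL1 had 330, 61 and 270 nt in the knockdown and 0, 0 and 61 nt in the scrambled libraries. Antigen presentation and interferon genes had 5 members among 40 regions (12.5%, 5.46 to 26.1%) and no lost region. TAP2 held 2 of them and TAPBP 1, both genes of the peptide loading pathway, and ISG15, a ubiquitin-like modifier, and STAT2, a transcription factor of the interferon response, held 1 each. The TAPBP region lay at chromosome 6, 33272720 to 33273110 (minus strand), with 91, 151 and 391 nt in knockdown replicates 1, 2 and 3, against none with scrambled siRNA. PI3K and mTOR signalling had 4 among 55 regions (7.27%, 2.86 to 17.3%), among them PIK3R2, a regulatory subunit of the kinase, AKT2 and INPPL1, a phosphatase that acts on its lipid product. Autophagy and lysosome genes had 4 among 38 (10.5%, 4.17 to 24.1%), in SQSTM1, the cargo receptor p62, ATG9A, TFE3 and RUBCN. The intervals of the Wnt and the PI3K and mTOR lists include the 3.42% of all regions.

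Some lists held few or none. Genes of the Hippo pathway held no member among 81 regions. Readers and erasers of m6A held none among 19 (0 to 16.8%), and the writers held 1 among 22 (4.55%, 0.81 to 21.8%). Each of these intervals includes the 3.42% of all regions. The member among the writers lay in METTL3, with 209, 0 and 150 nt in knockdown replicates 1, 2 and 3. That METTL3 region spans chromosome 14, 21972008 to 21979457 (minus strand), with introns inside it, and its percentiles were 24.6 and 15.3 in knockdown replicates 1 and 3.

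The regions of the member genes that were not members themselves gave a measure over all 6 libraries that is not independent of the choice of those genes. Across the 670 genes, 1178 other regions made up 5.48, 6.64 and 5.63% of the regions called in knockdown replicates 1, 2 and 3 and 5.35, 5.70 and 4.89% of those called in the scrambled replicates. The means were 5.92 ± 0.63% in the knockdown and 5.32 ± 0.41% in the scrambled libraries (SD, n = 3 each). The share was higher in the knockdown in 3 of 3 pairs, but the groups overlapped and the difference of 0.60 points did not pass the test (two-sided exact permutation test, p = 0.3, Benjamini-Hochberg adjusted p = 0.3 over 2 tests, where 3 against 3 cannot go below 0.1). Leaving out the members removes gained regions from this measure by construction. The genes here and those with a lost region were chosen by calls of these same libraries, which can act in the opposite way. No conclusion is therefore drawn from the direction of either difference. In the 218 genes with a lost region, the other regions made up 1.74, 1.37 and 1.85% of the calls in the knockdown and 1.98, 1.67 and 2.18% in the scrambled libraries, lower in 3 of 3 knockdown libraries (difference -0.29 points, two-sided exact permutation test, p = 0.3, adjusted p = 0.3).

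**Figure D5:**
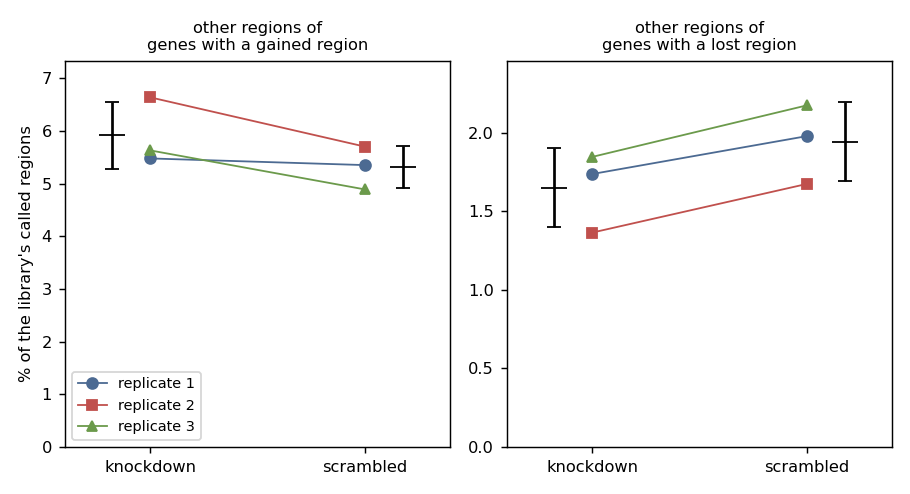
Share of the regions called in a library that were other regions of genes with a gained region (left) or with a lost region (right), in percent, for knockdown and scrambled libraries joined by replicate number; black bars show the mean and SD of 3 libraries. The left share is higher and the right share is lower in the knockdown in 3 of 3 pairs, and the groups overlap in both panels.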

How the data were processed

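The data were m6A peak lists of 143B cells, 1 list for each of 3 ALKBH5 knockdown and 3 scrambled siRNA libraries; groups follow the sample titles. Per the submitters' processing notes, CASAVA 1.8.2, TopHat2 and SAMtools were used on the hg19 genome. For the peak caller, its threshold and any use of input reads, the entry is not given in the sources used here. Peaks were called per library, without pooling. The authors deposited a score with every peak, read here as a p-value because the scores lie between 0 and 0.011; it served only to rank peaks within a list. The lists hold no counts, so depth is unknown, and a deeper library or a looser threshold lengthens a list.

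Same-strand peaks whose exon blocks shared at least 1 bp formed a region. Exon length per library is the union of the blocks of its peaks, and its percentile is that of its best peak. Gene numbers were named through a RefSeq table of GRCh38.p14, used for names only: 10500 of 10536 matched, and 668 of the 670 genes with a member did. Families were limited to protein-coding genes without readthrough genes, and several genes whose symbol fits a family but whose protein does not were left out after the members were known. The noncoding RNA family was taken by symbol. The members, families and lists were chosen with earlier results of these data known. Named genes were ALKBH5, USP22 and RNF40, the regions gained in 3 numbers (values for the 12 with the highest lowest percentile) and, for each pair of numbers, the 6 regions with the highest lowest percentile and 1 symbol; others are members of the families and lists.

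Shares of other regions were tested over the 6 libraries by exact permutation, two-sided. Libraries with the same number form pairs, since they share RNA type and antibody per the labels' protocols, and their deviations from the group means correlated at 0.24, 0.31 and 0.29. Intervals are 95% Wilson intervals, and for medians order-statistic intervals. Python 3.11.15, pandas 2.3.3, numpy 2.4.6 and scipy 1.17.1 were used, and the membership rule was tested on simulated lists. A few genes and 1 gene family are not reported here.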

Additional observations from a re-analysis of the deposited data

How the results depend on the processing

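The number of member regions kept within 1.5 times of 741 under 7 of 11 alternatives and moved under 4. Lists trimmed by score to equal covered length within each number gave 70 (with 754 lost), and that setting shortened mainly knockdown replicate 1. Counting a region as gained only where its gene had no peak in the scrambled library of that number gave 296 (94 lost). Without replicates 1, 2 or 3 the rule gave between 52 and 511 regions, the lowest without replicate 1 and 239 without replicate 3, and 53 to 461 genes. Lists cut to the size of the shortest gave 611 regions, of which 61 were among the 741, and pairs cut to equal numbers of peaks gave 578, of which 559 were.

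With the replicate number as a block, the share of other regions of the member genes kept its difference of 0.60 points (exact sign-flip test, p = 0.25, the smallest that 3 pairs allow). The difference stayed positive under all 11 alternatives (permutation or sign-flip p between 0.2 and 0.7), at 0.24 to 0.82 points with each library left out. In each of them the genes were chosen by calls of the same libraries, so the constant sign decides nothing. For the members called in both libraries of replicate 3, alternatives chosen after seeing the data gave a higher knockdown percentile in 66.7 to 81.7% of regions, with a median difference of 5.48 to 14.5 points. Motif content was not run, since no genome of the build of the lists was used here. Unknown depth limits every missing call, and each difference in list length.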

Other observations

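Phosphatases, cyclin-dependent kinases and the translation machinery also held regions gained in at least 2 replicate numbers, at shares not set apart from those of all regions. Over all regions 3.42% were members and 1.08% were lost. The 95% Wilson interval of the member share included 3.42% for every family of this paragraph. Subunits of PPP phosphatases held 6 among 95 regions (6.32%) with 1 lost, and protein tyrosine phosphatases held 4 among 61 with none lost. PPP1R15A, the stress-induced subunit GADD34 that directs dephosphorylation of eIF2 alpha, had 419, 180 and 507 nt in knockdown replicates 1, 2 and 3 (chromosome 19, 49376550 to 49377056, plus strand, hg19), against 0, 0 and 388 nt in the scrambled replicates. PTPN13 had 181, 61 and 271 nt in the knockdown, against 0, 0 and 241 nt in the scrambled libraries. The receptor phosphatase PTPRJ had 60, 210 and 300 nt in the knockdown, against 0, 0 and 240 nt in the scrambled libraries. Cyclins and CDK genes by symbol held 4 among 62 regions with none lost, among them CDK5R2, CDK10 and CDK16. Translation factors held 3 among 51 with none lost, in EIF4G1, the scaffold of the cap-binding complex, EIF4E2, a cap-binding protein, and EIF2B5, which belongs to the eIF2B complex that recharges eIF2 with GTP. In replicate 3 neither of the 2 translation factor regions called in both libraries had a higher percentile in the knockdown. Proteins of the mitochondrial ribosome held 3 among 61 regions with 1 lost, in MRPL4, MRPL46 and MRPS11.

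Among cell surface genes, cadherins and protocadherins held 6 among 128 regions with none lost, in PCDH10 with 3 regions, CELSR3, FAT3 and PCDHB14, and all 6 were gained in replicates 1 and 3 only. G protein-coupled receptors held 6 among 142 (4.23%) with none lost, 3 of them in ADGRG4, 2 in FZD8 and 1 in the purinergic receptor gene P2RY11. Collagens and laminins held 2 among 65 (3.08%) with 1 lost, the members in COL6A2 and COL8A1. Both were longer in knockdown replicate 3, with 540 nt against 360 nt with scrambled siRNA in COL6A2 and 597 nt against 359 nt in COL8A1. Noncoding RNA genes named as LINC, antisense or SNHG genes held 33 among 713 regions (4.63%) with 13 lost, and LINC00842 had 3 of the gained regions. In LINC00842 the knockdown libraries called 4, 0 and 6 regions and the scrambled libraries called 0, 0 and 1.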
